A study of Caenorhabditis elegans with 39 samples.

Results

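Fed larvae of the nematode Caenorhabditis elegans, strain N2, were compared between long-term dauer and control ancestry. They were chosen by their labels as the batch 1 libraries fed for 18 h, and made up 7 of the 39 libraries of the series. Embryos of an ancestor generation had been kept under control conditions or under conditions that led to a long stay in the dauer stage, after which the worms recovered and were fed. RNA was taken from their F3 descendants as first-stage larvae, so no larva in these libraries had been a dauer itself and all were fed. The 3 long-term dauer libraries were named LC3_40d, LC3_49d and LC4_49d, and the 4 control libraries LC10, LC11, LC12 and LC14. The labels do not say what 40d and 49d count, how many worms a library holds or whether the libraries came from separate populations. LC3_40d and LC3_49d share a number, so p-values measure the spread between these libraries, which may in part be technical. Fed descendants of worms with a short stay in dauer (LC11, LC12, LC13 and LC14; 4 libraries) and starved larvae of both batches are used only for comparison.

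The dauer is a long-lived larval form that C. elegans enters under crowding, heat or lack of food, and leaves when food returns. A fed first-stage larva resumes growth, makes ribosomes at a high rate and builds the cuticle of the next stage. The genes of that cuticle are transcribed in waves, with the collagens of the annular furrows early in the cycle and other collagens later, so their levels depend on how far a larva has come towards its moult. Ribosomal RNA (rRNA), the RNA of the signal recognition particle (SRP), which brings secretory proteins to the endoplasmic reticulum, and the RNAs of the enzymes RNase P and RNase MRP, which cut tRNA and rRNA precursors, carry no poly(A) tail. That list is not complete, and RNA classes were not compared by whether they carry a tail. Libraries were prepared from poly(A) RNA without strand information, so genes on opposite strands of a locus cannot be told apart.

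The 7 libraries held 23301035 to 30003964 reads in genes. No pair of libraries within a group was a copy of another: the lowest chi-square per degree of freedom over the 9 pairs was 7.19. Levels are given in CPM, the counts of a feature per 1e+06 counts of its library, after each library size was adjusted by a TMM scaling factor. CPM values are therefore not shares of a library's own gene counts, which are given in percent. The larval collagen gene col-17 was at 792 to 1533 CPM and the starvation gene lipl-3, a lipase, at 0.145 to 0.585 CPM. Summed markers of epidermis (2192 to 3964 CPM), intestine (5660.2 to 9259.8), body muscle (7744 to 8430.3), pharynx (2857 to 4330.0) and neurons (917 to 1222) were present in all 7 libraries, while 9 sperm genes summed to 1.22 to 3.09 CPM and 11 adult yolk and oocyte genes to 23.7 to 47.2 CPM. Control LC12 stood apart from the other control libraries in many genes, which are described after the moulting genes.

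Across the whole table, long-term dauer and control descendants differed little in messenger RNA, and the features that stood out were structural RNAs. Of 16132 features tested in edgeR's quasi-likelihood test, 0 (0%) passed an adjusted p of 0.05, and the lowest adjusted p was 0.562. At an unadjusted p under 0.05 there were 706 (4.38%), 383 higher (2.37%) and 323 lower (2%) in long-term dauer descendants. That count was 286 without long-term dauer LC3_49d and 1176 without LC4_49d. The median log2 fold change of all features was -0.00. DESeq2 called 13 of 16013 features (0.0812%), 12 higher and 1 lower: 4 rRNA features, 6 other non-coding RNAs, 1 pseudogene, and the protein-coding genes grsp-4 and ugt-19. The 10 features with the lowest edgeR p were rRNA features, SRP RNA genes, the RNase P and MRP RNAs, the non-coding RNA lfor-1 and an rRNA pseudogene. In the other comparisons edgeR also called 0 features, and an unadjusted p under 0.05 was reached by 826 of 16132 (5.12%) in fed short-term dauer against control, by 2087 of 19321 (10.8%) in starved larvae of batch 1, by 198 of 20062 (0.987%) there without the library labelled LC4_49d, and by 284 of 14965 (1.9%) in starved larvae of batch 2.

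By class, all 5 rRNA features tested were at an unadjusted p under 0.05 and higher in long-term dauer descendants, with a median log2 fold change of 2.63. Of 215 other non-coding features, 13 were higher and 1 lower (6.51%), and their median was -0.00. Of 14995 protein-coding genes, 353 were higher and 315 lower (4.45%), again with a median of -0.00. Pseudogenes gave 8 higher and 5 lower of 632 (2.06%). Features that matched no annotation gave 4 higher and 2 lower of 285 (2.11%).

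**Figure D1:**
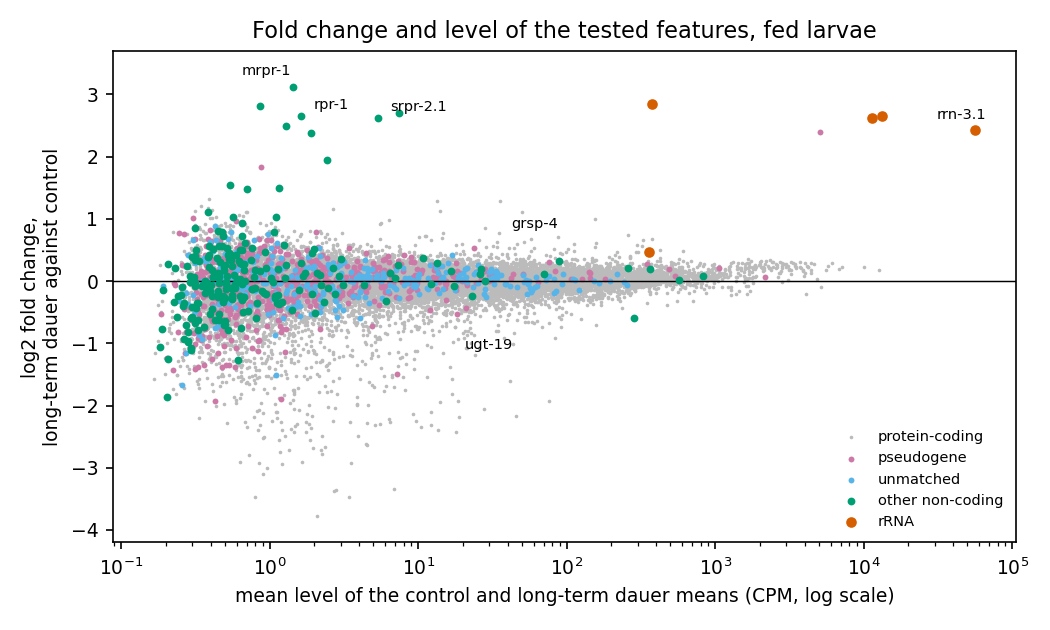
Log2 fold change of fed long-term dauer against fed control (vertical axis) against mean level in CPM (horizontal, log scale) for the features tested in edgeR; each point is a feature, coloured by class, and 6 are named. The nuclear rRNA features and a group of low non-coding RNAs lie near 2 to 3, above the protein-coding genes of like level, the small mitochondrial rRNA lies at 0.46, and a tail of protein-coding genes at low levels lies below -1.

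The share of gene counts that fell in rRNA was higher in every long-term dauer library than in any control library. It was 1.43% in control LC10, 2.62% in LC11, 2.17% in LC12 and 2.23% in LC14, a mean of 2.11% ± 0.496 (SD, n = 4). It was 16.96% in long-term dauer LC3_40d, 4.801% in LC3_49d and 7.45% in LC4_49d, a mean of 9.74% ± 6.39 (SD, n = 3). The 3 long-term dauer libraries thus spanned a wide range and did not overlap the controls. The exact binomial 95% interval for LC3_40d was 16.946% to 16.974%, which covers counting error only. The means differed by 7.63 percentage points (two-sided exact permutation test over 35 arrangements, p = 0.0286, the smallest it can give; adjusted over 5 tests of shares, 0.0714). With LC3_40d and LC3_49d, which share a number, averaged into 1 value the difference was 7.05 points (exact permutation p = 0.0667), and without LC3_40d it was 4.02 points (exact permutation p = 0.0667), the smallest p those designs allow. Fed short-term dauer libraries stood at 2.60%, 2.56%, 3.08% and 1.31%, within or near the range of the controls.

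The rRNA share moved with other measures of the same libraries. All 3 long-term dauer libraries were sequenced on lane 4, with control LC10 and LC11, while control LC12 and LC14 and all fed short-term dauer libraries were on lane 5. Within lane 4 the difference was 7.71 points (exact permutation p = 0.2, where 0.1 is the smallest that 3 libraries against 2 can give). Reads that could belong to more than a single gene were 4.201% in LC3_40d, 2.94% in LC3_49d and 3.22% in LC4_49d, against 2.79% to 2.90% in the controls. Reads that did not align were 14.4%, 17.1% and 16.3% in the same order, against 16.8% to 17.3% in the controls. The part that poly(A) selection or library preparation had in these shares was not tested.

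Starved larvae gave a further reading of the same share in libraries that the fed comparison did not use. Those of batch 1 were not separate from the fed libraries in lane or labels. The batch 1 long-term dauer libraries, fed and starved, were labelled RC-L1 to RC-L6 and were all on lane 4. Batch 1 controls were labelled RC-L7 or later and were on lanes 4 and 5. The part of lane or label order in the share was not tested. In batch 1, which held starved larvae of the same LC numbers, the share was 14.4% in long-term dauer LC3_40d, 8.04% in LC3_49d and 14.001% in LC4_49d, and 1.40% to 5.11% in 5 control libraries (exact permutation p = 0.0179, adjusted 0.0714). The starved library labelled LC4_49d stood apart: the log2 fold change of col-17 between long-term dauer and control was 6.81 with it and 0.36 without it. Without it the means were 11.2% and 2.79% (exact permutation p = 0.0476, the smallest possible, adjusted 0.0794). In batch 2 the long-term dauer libraries stood at 7.002%, 4.33%, 2.08% and 2.62%, and overlapped the 7 controls at 1.68% to 4.37% (exact permutation p = 0.215, adjusted 0.269).

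**Figure D2:**
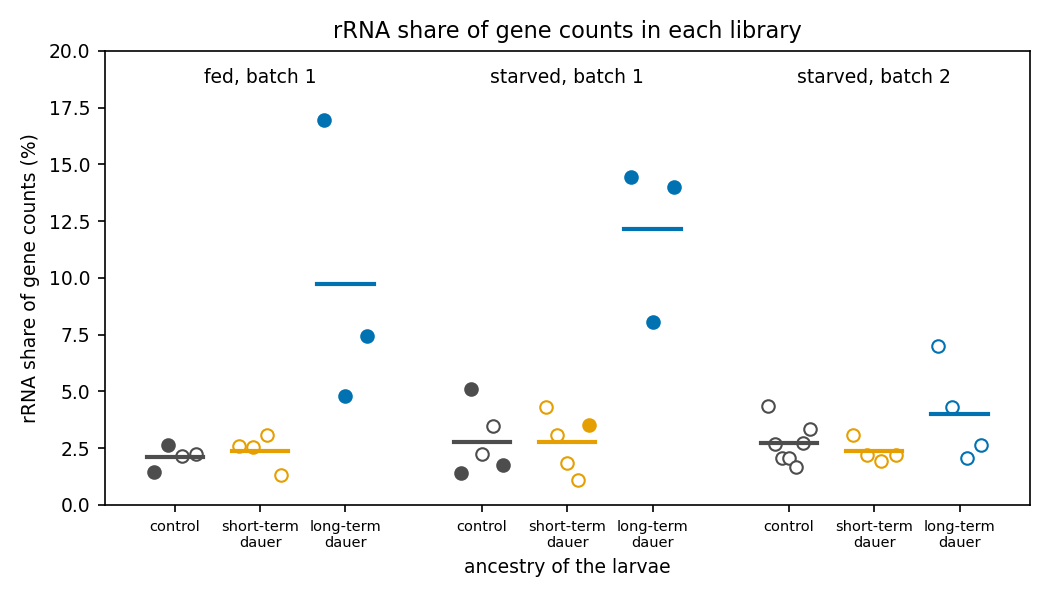
Share of gene counts in rRNA (%) in every library, by ancestry, for fed larvae and for starved larvae of each batch; each circle is a library, filled for lane 4 and open for other lanes, and bars are group means. The fed long-term dauer libraries lie between 4.801% and 16.96% and the fed controls between 1.43% and 2.62%.

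The nuclear rRNA genes had similar fold differences. The 26S rRNA gene rrn-3.1 (F31C3.9) of the large ribosomal subunit was at 12500.2, 23345, 16258 and 18440.4 CPM in control LC10, LC11, LC12 and LC14. It was at 176392, 42676 and 66615 CPM in long-term dauer LC3_40d, LC3_49d and LC4_49d. Its log2 fold change was 2.42 (SE 0.453, edgeR adjusted p = 0.562; DESeq2 adjusted p = 0.00274), and the groups did not overlap. Both 18S rRNA copies of the small subunit, F31C3.7 and F31C3.8, are near-identical (rrn-1.1 and rrn-1.2 in RefSeq) and may share reads, so their sum is given: 4863, 9478, 5549.7 and 7208 CPM in the controls, and 80074, 16567 and 31002 CPM in the long-term dauer libraries, a ratio of means of 6.28. The 5.8S rRNA rrn-2.1 stood at 58.4, 110, 62.6 and 134 CPM in the controls and at 1329.5, 196 and 453 CPM in the long-term dauer libraries, a ratio of 7.24. The feature F31C3.10, which RefSeq lists as an rRNA pseudogene, had a ratio of 5.29. All these features were annotated to chromosome I, and the counting of reads that fit several copies is not given in the sources used here.

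The small mitochondrial rRNA differed from this pattern, and the large mitochondrial and 5S rRNAs could not be compared. The small mitochondrial rRNA (MTCE.7) was at 297, 345, 251 and 306 CPM in the controls and at 556, 284 and 408 CPM in the long-term dauer libraries, so the groups overlapped. Its log2 fold change was 0.46 (SE 0.164, edgeR adjusted p = 0.932). The 15 copies of 5S rRNA and the large mitochondrial rRNA held at most 1 read in any of the 11 fed libraries, which gives no level to compare.

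SRP RNA, RNase P RNA and RNase MRP RNA had fold differences close to those of rRNA, at far lower levels. The SRP RNA gene srpr-2.2 was at 1.33, 1.52, 2.18 and 2.67 CPM in the controls and at 22.2, 5.18 and 11.1 CPM in the long-term dauer libraries, for which edgeR gave a log2 fold change of 2.70 (SE 0.494, adjusted p = 0.562; DESeq2 adjusted p = 4.85e-05). That is the lowest adjusted p DESeq2 gave. The SRP RNA gene srpr-1.2, with the lowest edgeR p of all features, differed by 2.38 on the log2 scale (SE 0.435; adjusted p = 0.562 in edgeR; DESeq2 adjusted p = 0.00275). The 5 SRP RNA genes, related copies whose reads may be shared, summed to 3.14 to 5.54 CPM in the controls and 9.56 to 44.0 CPM in the long-term dauer libraries. The RNase P RNA rpr-1 had 0.160, 0.593, 0.453 and 0.535 CPM in the controls against 5.32, 1.11 and 2.08. The RNase MRP RNA mrpr-1 had 0.106, 0.381, 0.494 and 0.146 CPM against 5.21, 0.905 and 1.70, the largest ratio of means among these RNAs, 9.24. These levels rest on few reads: mrpr-1 had between 2 and 91 reads in a control or long-term dauer library. The non-coding RNAs lfor-1 and lfor-2 summed to 0.453 to 0.535 CPM in the controls and to 3.72, 1.51 and 2.33 CPM in the long-term dauer libraries.

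In each of these RNAs LC3_40d was the highest, LC4_49d next and LC3_49d the lowest of the long-term dauer libraries, which is the order of the rRNA share. That order was not particular to them. It also held in classes whose groups overlapped: spliceosomal snRNAs and snoRNAs, both described next, the small mitochondrial rRNA and mitochondrial messages. It did not hold in tRNAs, piRNAs, histone messages or ribosomal protein messages. Among the nuclear rRNAs, SRP RNA, RNase P and MRP RNAs and the lfor pair, the ratios of long-term dauer to control means ran from 5.103 for the lfor pair to 9.24 for RNase MRP RNA. In starved larvae of batch 1 without the library labelled LC4_49d, edgeR gave log2 fold changes of 2.13 for rrn-3.1, 3.12 for srpr-2.2, 3.18 for srpr-2.1, 2.65 for rpr-1 and 3.15 for mrpr-1. In starved larvae of batch 2 they were 0.55 for rrn-3.1, 0.52 for srpr-2.2, 1.24 for srpr-2.1 and 0.76 for rpr-1. In fed short-term dauer descendants, which share their controls with the comparison above, they were 0.20, 0.51, 0.63 and 0.55 for the same 4 genes.

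Summed by class, other short non-coding RNAs overlapped between the groups, though some single snoRNAs did not. Small nucleolar RNAs (snoRNAs), which guide modification of rRNA, summed to 32.2, 32.97, 24.5 and 31.4 CPM in the controls and to 56.8, 31.5 and 42.6 CPM in the long-term dauer libraries, so the groups overlapped. Single snoRNAs with the lowest p were Y74C9A.6, at 0.0973 to 0.254 CPM in the controls and at 3.09, 0.654 and 0.776 CPM in the long-term dauer libraries, Y24D9A.9, at 0.576 to 1.28 and at 7.10, 1.06 and 3.44 CPM, with overlap, and ZK643.9, at 0.486 to 0.744 and at 2.92, 1.21 and 1.02 CPM. F46F11.12 was at 0.195 to 0.423 CPM in the controls and at 1.14, 0.604 and 0.679 CPM in the long-term dauer libraries. These snoRNAs lie outside the rule for named features because of their low level and were chosen after their values were seen. Spliceosomal snRNAs had a ratio of means of 1.02, tRNAs of 1.00 and piRNAs of 0.98, and each overlapped between groups. tRNA features held only 27 to 166 reads in a control or long-term dauer library, and no tRNA feature passed the filter on low counts. Outside rRNA, non-coding features took 0.267% ± 0.0637 (SD, n = 4) of gene counts in controls and 0.236% ± 0.0339 (SD, n = 3) in the long-term dauer libraries (exact permutation p = 0.571).

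**Figure D3:**
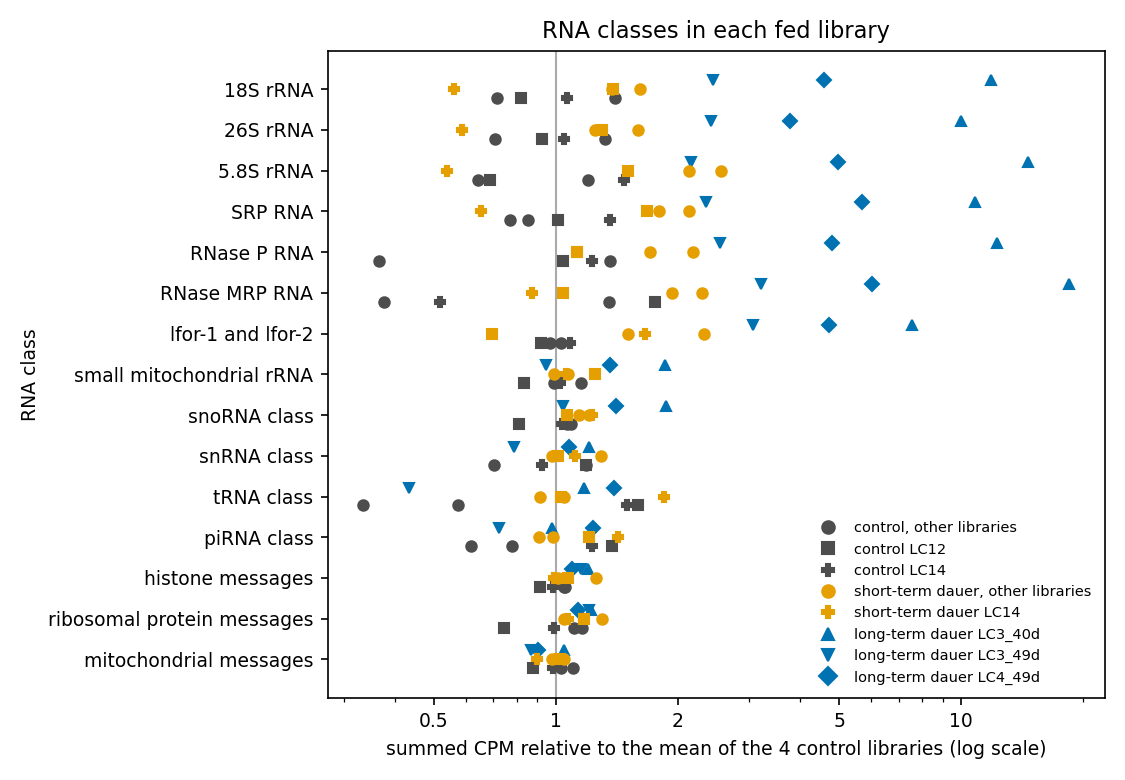
Summed CPM of each RNA class in every fed library, divided by the mean of the 4 control libraries (log scale); each symbol is a library. Long-term dauer libraries lie to the right of all controls for 18S, 26S and 5.8S rRNA, SRP RNA, RNase P RNA, RNase MRP RNA and the lfor pair, always in the order LC3_40d, LC4_49d, LC3_49d, and overlap the controls for snRNA, tRNA and piRNA. The same order holds for snRNA.

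Protein-coding genes differed by far less. Of the 16132 features, 666 (4.13%) had no overlap between the 3 long-term dauer and 4 control libraries, 432 higher (2.68%) and 234 lower (1.45%). Of these, 393 of the higher and 217 of the lower were protein-coding. None passed the adjusted threshold in edgeR. The genes named next are the 10 in each direction with the lowest edgeR p among non-overlapping genes whose mean reached 10 CPM in either group. Their edgeR adjusted p-values were 0.562 for grsp-4, 0.905 for ugt-19 and 0.932 for the other 18. They were picked for separation, so their lack of overlap is part of the rule and no finding.

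The gene with the lowest p was grsp-4, of a family of glycine-rich secreted proteins. It was at 25.8, 35.4, 21.7 and 21.4 CPM in control LC10, LC11, LC12 and LC14 and at 54.1, 40.3 and 38.6 CPM in long-term dauer LC3_40d, LC3_49d and LC4_49d. Its log2 fold change was 0.77 (SE 0.161, DESeq2 adjusted p = 0.0159). Short-term dauer libraries stood at 33.98 to 44.3 CPM, with a log2 fold change against the same controls of 0.56. The other members tested, chosen after grsp-4 was seen, had edgeR log2 fold changes of 1.12 (grsp-1), 1.11 (grsp-2) and 1.16 (grsp-3). Their edgeR adjusted p was 0.932. Control LC11 was the highest control in all 4, and grsp-2 ran from 13.4 to 55.1 CPM within the controls, against 58.2 to 76.5 CPM in the long-term dauer libraries. How reads shared between these related genes were counted is not given in the sources used here.

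Further genes higher in long-term dauer descendants had small differences. The troponin T gene tnt-4, part of the muscle thin filament, had 287, 369, 252 and 317 CPM in the controls and 390, 452 and 395 CPM in the long-term dauer libraries, a log2 fold change of 0.43 (SE 0.126). The splicing factor gene rsp-8 of the SR family was at 129.7 ± 15.7 CPM (SD, n = 4) in the control libraries and 168 ± 10.6 CPM (SD, n = 3) in the long-term dauer libraries. The KCNQ-type potassium channel gene kqt-3 was at 13.8 ± 2.00 and 17.9 ± 0.572 CPM. The remaining genes F13E9.15, F22E5.13, C39D10.2, Y69H2.3, K08C7.4 and marc-5 had log2 fold changes of 0.30 to 0.65. In fed short-term dauer descendants, which share the controls, all 10 genes had a positive log2 fold change, from 0.11 for K08C7.4 to 0.56 for grsp-4. The genes were picked for low values in those controls, so a common sign was favoured by the rule. In starved larvae their log2 fold changes between long-term dauer and control lay between -0.21 and 0.28 in batch 1 without the library labelled LC4_49d, and between -0.25 and 0.22 in batch 2.

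Among the genes lower in long-term dauer descendants, 4 of 10 encode UDP-glucuronosyltransferases, enzymes that join sugars to small molecules and so help to clear them. ugt-19 was at 22.8, 19.5, 30.9 and 16.9 CPM in the controls and at 13.3, 7.80 and 13.8 CPM in the long-term dauer libraries, a log2 fold change of -0.98 (SE 0.221, DESeq2 adjusted p = 0.0207). ugt-16 was at 57.5, 83.3, 65.3 and 48.0 CPM in the controls and at 41.9, 44.8 and 41.3 CPM in the long-term dauer libraries. The 3 long-term dauer values of ugt-16 lay close together, while the controls differed among themselves by more than the gap between the groups. ugt-25 and ugt-63 had log2 fold changes of -0.44 and -0.75. The other 6 were rhy-1, a membrane protein that keeps the hypoxia factor HIF-1 in check (-0.78, SE 0.205), lonp-2, a peroxisomal protease (-0.44, SE 0.121), and F27D9.2, C29F3.7, F44A2.3 and C40H1.8 (-0.54 to -0.40). All 10 were also negative in fed short-term dauer descendants against the same controls, from -0.46 for ugt-19 to -0.15 for F44A2.3. Here too the rule favoured a common sign, because it picked genes with high values in those controls. In starved larvae of batch 1 without the library labelled LC4_49d their log2 fold changes ran from -0.82 for ugt-63 to 0.32 for F27D9.2, with ugt-25 at -0.47, ugt-19 at -0.15 and ugt-16 at -0.07. In starved larvae of batch 2 they ran from -0.12 for C40H1.8 to 1.27 for ugt-63.

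**Figure D4:**
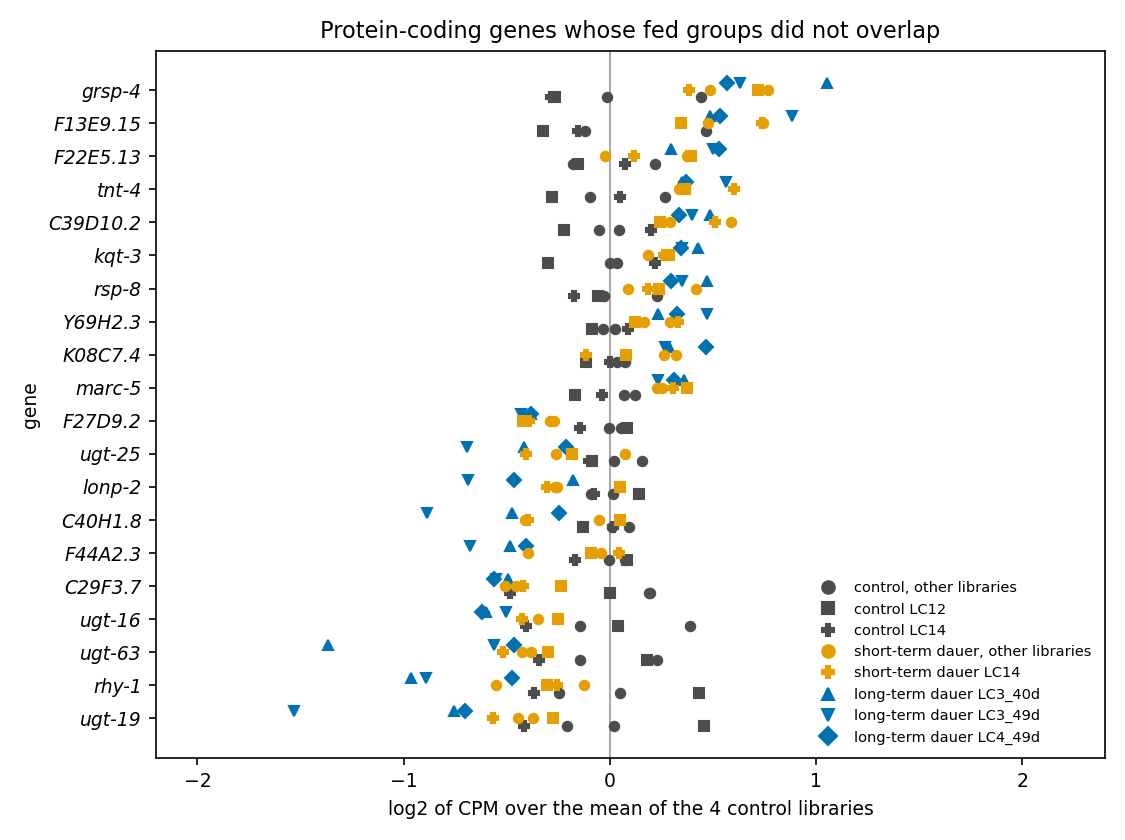
CPM of the 20 named protein-coding genes in every fed library, as log2 of the ratio to the mean of the 4 control libraries; each symbol is a library. Long-term dauer libraries do not overlap controls because the genes were chosen so; short-term dauer libraries lie between both groups or among the long-term dauer libraries in many of the genes.

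The whole family of UDP-glucuronosyltransferases, chosen after these values were seen, leaned the same way. The members named above are included in its counts, medians and sums, so the lean in fed larvae is partly set by that choice. Of 67 genes tested, 54 had a log2 fold change below 0, where 50.4% of all features were below 0 and 49.6% above. There were 15 at an unadjusted p under 0.05, all lower, beside 2% lower among all features. The median log2 fold change of the family was -0.20. Summed over the family, controls held 1624, 1770, 1639 and 1458 CPM and long-term dauer libraries 1393, 1308 and 1340 CPM, so the groups did not overlap in the sum. Short-term dauer libraries held 1348 to 1597 CPM. Without control LC12 the family's median was -0.16, with 15 genes lower at an unadjusted p under 0.05. In fed short-term dauer descendants, against the same controls, the median was -0.13, with 46 of 67 genes below 0. There 14 genes were lower and 1 higher at an unadjusted p under 0.05, beside 5.12% of all features in either direction. In starved larvae of batch 1 without the library labelled LC4_49d the median was -0.15, with 52 of 67 genes below 0, and in batch 2 it was 0.05, with 28 of 66 below 0. The share of all features below or above 0 is given only for the main fed fit. Such counts from other fits, here and in the families below, have no background beside them. Without control LC12, 724 features in either direction were at an unadjusted p under 0.05 in edgeR.

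Cytochromes P450, oxidases that act on small molecules before sugars are joined to them, were also mostly lower, by an amount that depended on control LC12. The family was chosen after values were seen. Of 73 genes tested, 62 were below 0 and 12 were lower at an unadjusted p under 0.05, beside 50.4% below 0 and 2% lower among all features, with a median log2 fold change of -0.29. Summed, control LC12 held 974 CPM, the other controls 597 to 641 CPM and the long-term dauer libraries 513 to 591 CPM. Without control LC12 the median was -0.08, 44 of 73 genes were below 0, and 5 genes were lower and 2 higher at an unadjusted p under 0.05. In fed short-term dauer descendants, against the same controls, the median was -0.12. There 12 of the 73 genes were lower and 1 higher at an unadjusted p under 0.05, beside 5.12% of all features in either direction.

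Ribosomal protein genes, a family chosen after values were seen, were mostly at higher levels in long-term dauer descendants. All 76 ribosomal protein genes tested had a log2 fold change above 0, with a median of 0.24, and 13 were higher at an unadjusted p under 0.05, beside 49.6% above 0 and 2.37% higher among all features. In fed short-term dauer descendants, against the same controls, all 76 were also above 0, with a median of 0.17. Their sum was 181153, 172702, 115907 and 154395 CPM in control LC10, LC11, LC12 and LC14 and 190642, 188020 and 176685 CPM in long-term dauer LC3_40d, LC3_49d and LC4_49d. Control LC10 lay among the long-term dauer libraries. Without control LC12 the median was 0.14 and the number at an unadjusted p under 0.05 was 3. These genes are among the most abundant messages and are measured relative to the same total, so their directions are not independent of each other. Nucleolar proteins, which make and process rRNA, had a median of 0.19 over 11 genes, 3 of them higher at an unadjusted p under 0.05, beside 2.37% of all features: fib-1, the fibrillarin that methylates rRNA, with a log2 fold change of 0.30, ncl-1, a repressor of nucleolar size, with 0.23, and rpoa-1, a subunit of RNA polymerase I, with 0.23. Without control LC12 their median was 0.14 and 1 gene was at an unadjusted p under 0.05. In fed short-term dauer descendants all 11 were above 0, with a median of 0.12. The 72 histone genes, also chosen after values were seen, summed to 1463, 1459, 1273 and 1368 CPM in the controls and to 1665, 1605 and 1528 CPM in the long-term dauer libraries.

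Genes known from starved larvae gave a mixed reading in these fed larvae. The acyl-CoA synthetase gene acs-2, of fatty acid oxidation, was at 20.7, 20.02, 20.5 and 22.4 CPM in the controls, at 48.4 CPM in long-term dauer LC3_40d, at 81.0 CPM in LC3_49d and at 21.5 CPM in LC4_49d. The high values were thus in both LC3 libraries, and LC4_49d lay among the controls. Short-term dauer LC13 was also high, at 46.8 CPM. The isocitrate lyase gene icl-1, of the glyoxylate shunt, followed the same libraries, with 470 to 588 CPM in the controls and 789, 839 and 498 CPM in the long-term dauer libraries. The gluconeogenesis gene pck-1 was at 454, 501, 445 and 488 CPM against 564, 627 and 532 CPM. These 3 of the 11 genes tested were at an unadjusted p under 0.05 and higher, beside 2.37% of all features. Of the 11, 7 had log2 fold changes above 0, among them T22F3.11 (0.34), C23G10.11 (0.65) and F15A4.8 (0.35). Below 0 were fmo-2 (-0.39), hacd-1 (-0.38), sod-3 (-0.53) and mtl-1 (-1.67). None of these named members was at an unadjusted p under 0.05. mtl-1 was at 22.7 CPM in control LC12 and 1.60 to 3.14 CPM in the other controls. Its log2 fold change was 0.06 without LC12. sod-3 was at 1.48 CPM in LC12 and 0.160 to 0.423 CPM in the other controls. The median of the list was 0.28, but -0.02 without long-term dauer LC3_40d. The FOXO factor daf-16, on which much of starvation survival rests, had a log2 fold change of 0.00.

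Moulting genes were examined to ask whether both groups had reached like points of the larval cycle. None of the 76 listed members separated the groups. Features that did so were also few in the whole table, at 4.13%. The furrow collagens dpy-2, dpy-3, dpy-7, dpy-8, dpy-9 and dpy-10 had a mean log2 CPM of 8.24, 8.12, 7.57 and 7.91 in control LC10, LC11, LC12 and LC14, and of 8.54, 7.25 and 8.19 in long-term dauer LC3_40d, LC3_49d and LC4_49d. The long-term dauer libraries therefore held both the highest and the lowest of the 7 values. For dpy-7 this meant 342, 329, 236 and 281 CPM in the controls and 437, 186 and 348 CPM in the long-term dauer libraries. The median log2 fold change of the 6 collagens was 0.08, and -0.21 without long-term dauer LC3_40d, so its sign rested on that library.

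Collagens transcribed later in the cycle gave a median log2 fold change of -0.09 over 14 genes, 3 above 0. Among them col-17 was at 1533, 1476, 1097 and 1221 CPM in the controls and at 1352, 792 and 1494 CPM in the long-term dauer libraries. sqt-3 had a log2 fold change of -0.22 (SE 0.206). dpy-14 and dpy-17 had the widest spread: 253 and 405 CPM in control LC12, but 6.97 to 20.7 and 13.99 to 29.6 CPM in the other controls and 5.15 to 31.999 and 14.99 to 56.3 CPM in the long-term dauer libraries. Their log2 fold changes were -2.17 and -1.93, and 0.30 and 0.44 without control LC12.

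The other moulting lists followed the same libraries. Enzymes that modify and crosslink collagens had a median log2 fold change of -0.00 over 12 genes, among them the disulphide isomerase gene pdi-2 (0.02), the thioredoxin-like gene dpy-11 (-0.03), the oxidase maturation factor gene doxa-1 (-0.26) and the ADAMTS protease gene adt-2 (0.30). The last was the only member of this list at an unadjusted p under 0.05, beside 4.38% of all features. Its libraries overlapped, at 144 to 223 CPM against 208 to 271 CPM. Regulators of the moulting cycle had a median of -0.00 over 12 genes, with the Period-like gene lin-42 at 0.00, the membrane-bound transcription factor gene myrf-1 at 0.02, the nuclear receptor gene nhr-85 at 0.25 and the zinc finger gene bed-3 at -0.27. Matrix proteins, proteases and transporters of moulting had a median of -0.13 over 21 genes, 4 above 0. Among them the protease inhibitor gene mlt-11 was at 0.01, the megalin-like receptor gene lrp-1 at -0.19 and the astacin protease gene nas-36 at -0.36. nas-36 was the only member of its list at an unadjusted p under 0.05, beside the same share of all features. It was at 21.5 to 25.8 CPM in controls and 13.2 to 22.7 CPM in long-term dauer libraries. Hedgehog-related genes of the warthog and quahog families had a median of -0.10 over 10 genes, with qua-1 at 0.10, wrt-10 at -0.02, wrt-5 at 0.14 and wrt-4 at -0.25.

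Within the long-term dauer group, LC3_40d and LC3_49d stood at opposite ends although they share a number. LC3_40d was above LC3_49d in 67 of the 76 moulting genes. Among the 7 libraries, LC3_49d was the lowest in 55 of the 76 genes, including 19 of 21 matrix proteins, proteases and transporters, 10 of 11 warthog and quahog genes and 5 of 6 furrow collagens. LC3_40d was the highest in 36 and control LC10 in 20. Neither LC4_49d nor control LC11 or LC14 was the lowest in any. Short-term dauer LC14 was low as well, with a mean log2 CPM of the furrow collagens of 7.12, below LC3_49d. The difference between furrow and later collagens in mean log2 CPM, a crude measure of phase, was -0.15, -0.36, -1.08 and -0.31 in the controls and 0.25, -0.54 and -0.45 in the long-term dauer libraries, so the groups overlapped; it was not tested.

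**Figure D5:**
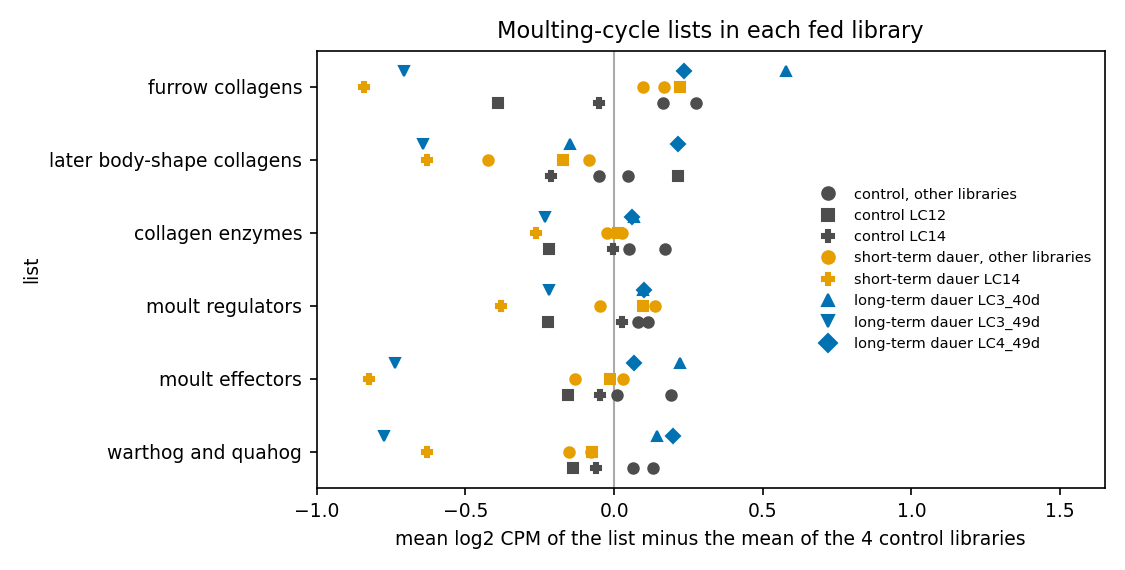
Mean log2 CPM of 6 moulting lists in every fed library, minus the mean of the 4 control libraries; each symbol is a library. LC3_49d and short-term dauer LC14 lie to the left in every list, level with control LC12 for LC3_49d in the enzymes and regulators, while LC3_40d and LC4_49d lie within the controls or to their right.

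Lists of other processes showed no shift as wide as that of the structural RNAs. Heterochronic genes, which set the order of larval fates, had a median log2 fold change of -0.03 with 0 of 12 genes at an unadjusted p under 0.05. The medians were 0.06 for DNA replication, -0.06 for the cell cycle, 0.09 for insulin-like peptides, 0.05 for the insulin pathway, 0.10 for the dauer decision pathway, 0.01 for small-RNA inheritance and 0.04 for histone methylation. In these 7 lists, 5 of 92 genes tested (5.43%) were at an unadjusted p under 0.05, beside 4.38% of all features: ins-5, an insulin-like peptide (0.49), akt-2, a kinase below the insulin receptor (0.30), ist-1, a substrate of that receptor (0.27), daf-5, a nuclear factor of the dauer decision (0.42), and efl-1, an E2F factor of the cell cycle (-0.21). Those 5 were named after their values were seen. The medians were 0.40 for heat shock chaperones, -0.10 for the intracellular pathogen response and -0.06 for mitochondrial messages, with 0 genes of these lists at an unadjusted p under 0.05. Epidermal antimicrobial peptides had a median of -0.41, and of 0.08 without control LC12, where their sum was 384 CPM against 113.5 to 187 CPM in the other controls. Numbered collagens, a family chosen after values were seen, had a median of -0.00 over 134 genes. Among the cell type markers the medians were -0.01 for epidermis, -0.05 for intestine, 0.04 for body muscle, 0.17 for pharynx, 0.06 for neurons, 0.04 for germline, 0.13 for adult yolk and oocyte, -0.18 for the single sperm gene tested and 0.02 for dauer genes. The intestinal esterase gene ges-1 was the only marker at an unadjusted p under 0.05, at 41.9 to 51.8 CPM in the controls and 34.9 to 41.7 CPM in the long-term dauer libraries.

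A long tail of protein-coding genes with low levels in long-term dauer descendants came from control LC12. Of 383 protein-coding genes with a log2 fold change below -1, LC12 was the highest control library in 350. Their median level was 4.90 CPM in LC12, 0.372 to 0.778 CPM in the other controls and 0.343 to 0.727 CPM in the long-term dauer libraries. When LC12 was left out, 29 protein-coding genes had a log2 fold change below -1. In the other direction 19 genes were above 1, and 93 when LC12 was left out. Among the tail, named after values were seen, was hch-1, the protease with which larvae leave the eggshell, at 80.5 CPM in LC12, at 0.957, 3.72 and 5.2 CPM in control LC10, LC11 and LC14, and at 0.801, 2.46 and 10.3 CPM in the long-term dauer libraries. The laminin gene lam-3 was at 182 CPM in LC12 and 14.3 to 31.6 CPM in the other 6 libraries, and cut-3, a cuticlin of the early cuticle, at 65.7 CPM and 1.2 to 9.36 CPM. LC12 also had the highest summed adult yolk and oocyte markers, 47.2 CPM against 23.7 to 36.2 CPM in the other 6 libraries. The part of unhatched eggs or of younger larvae in that library was not tested. In bulk RNA, fewer cells of a type and less RNA per cell cannot be told apart.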

How the data were processed

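The authors deposited raw read counts, a table per library with 44968 features and 5 summary lines, which were left out of all library totals and fits. Per the submitters' processing notes, Bowtie 1.1.2, HTSeq and edgeR were used, without their roles; the genome build and annotation are not given in the sources used here, so no coordinates are printed. Feature names were matched through transcript names of the Ensembl WBcel235 annotation for symbols and classes (44443 matched, 525 did not, at most 0.475% of counts of a library used here).

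Fed libraries (11, with the 4 short-term dauer libraries to estimate the spread) were fitted in edgeR 4.0.16 (R 4.3.3) with TMM, filterByExpr, robust dispersions, the quasi-likelihood test and Benjamini-Hochberg adjustment over all features. Starved larvae were fitted within batch. DESeq2 1.42.0 and limma 3.58.1 gave alternatives. CPM used TMM factors over 39 libraries; log2 CPM used a prior count of 2. SE is the size of the log2 fold change over the square root of F. Depth was 23301035 to 30003964, so the spread between libraries, more than counting, limits precision. Named were all features called by DESeq2, up to 10 protein-coding and 5 non-coding features per direction (lowest p, at least 10 CPM, no overlap), and up to 4 per moulting list (highest level, lowest p). Members and lists were chosen with earlier results of these data known. Long-term dauer and control libraries share no replicate number, so none were paired. Scripts were tested on simulated data.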

Additional observations from a re-analysis of the deposited data

Results flagged for a closer look

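In the control and short-term dauer fed groups, each of 4 libraries, the gap between the highest or lowest library and its nearest neighbour was compared with Dixon's critical value. Of 180 values checked 21 stood apart, where chance gives about 9. Long-term dauer has 3 libraries and was not checked.

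Most of them, 15 of 21, came from short-term dauer LC14. Its mean log2 CPM was low for furrow collagens (7.12, others 8.06 to 8.18), for warthog and quahog genes (4.10, others 4.58 to 4.66), for epidermal markers (7.21, others 7.70 to 7.78) and for the insulin pathway (6.08, others 6.21 to 6.22). Single moulting genes were low there in log2 CPM: dpy-7 (7.41), dpy-10 (7.30), qua-1 (7.52), wrt-10 (7.003), pdi-2 (11.16) and adt-2 (7.63). Its rRNA features were low too, with 10.79 for F31C3.7, 10.99 for F31C3.8 and 9.79 for F31C3.10. The troponin T gene tnt-4 was high (8.86), as was the other non-coding share of gene counts (0.296%).

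Control LC12 was low in mean log2 CPM for small-RNA inheritance genes (5.56, others 5.72 to 5.74), pharynx markers (7.26, others 7.44 to 7.47) and neuron markers (6.30, others 6.45 to 6.48). Control LC14 was high in srpr-2.1 (1.07 log2 CPM, others 0.46 to 0.54). Short-term dauer LC13 was low in doxa-1 (3.98 log2 CPM) and short-term dauer LC12 high in lonp-2 (5.42 log2 CPM).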

How the results depend on the processing

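The count of 0 genes at an adjusted p under 0.05 became 13 with DESeq2 and 3 with no filter on low counts, all 3 among DESeq2's 13. It stayed 0 with each library left out (0 to 0). The 706 genes at an unadjusted p under 0.05 became 468 with only the control and long-term dauer libraries and 336 with LC3_40d and LC3_49d summed; the cause was not tested beyond the fewer libraries. Leaving out 1 library each gave 286 to 1176. No paired analysis of both groups was possible because they share no LC number. A replicate block with LC number as a random effect in limma voom, with a correlation of -0.0968, gave 0 and 751. The rRNA share difference of 7.63 points was 7.71 in lane 4 (exact p = 0.2) and 7.05 with the LC3 libraries averaged (exact p = 0.0667). Without 1 library each it was 4.02 to 10.09, and these designs cannot reach 0.05. The other non-coding share difference, -0.0314 points, was 0.0108 in lane 4 and -0.0483 to -0.000793 without 1 library each. The moulting phase difference, 0.23, was 0.007 in lane 4, 0.03 without control LC12, and -0.02 to 0.37 over all fits without 1 library each. In starved larvae of batch 1, 2087 genes at an unadjusted p under 0.05 became 198 without the library labelled LC4_49d. Across the 16 to 17 alternatives, the named structural RNAs stayed between 1.61 and 3.53 on the log2 scale, and the 20 named protein-coding genes kept their direction.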
